A study of Drosophila melanogaster with 42 samples.

Results

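Accessible chromatin of cic6 embryos was compared directly with that of gd7 embryos of the same age, 2 to 3 h after egg laying, in Drosophila melanogaster. The comparison rested on 12 of the 42 ATAC-seq libraries of the study, 6 of each genotype, with 3 in the window of 2 to 2.5 h, called the younger window below, and 3 in the window of 2.5 to 3 h, the older window. The transposase Tn5 inserts sequencing adapters where DNA is open to it, and a peak is a stretch in which the authors' peak caller found more fragments than background. Overlapping peaks of the 12 libraries (1 bp or more) were merged into 72025 loci. A locus was chosen as a cic6 locus where at least 5 of the 6 cic6 libraries and at most 1 of the 6 gd7 libraries had a peak, and as a gd7 locus where the reverse held. This rule gave 1118 cic6 loci and 758 gd7 loci, 1876 in all, or 1.55% and 1.05% of the merged loci. Both numbers moved with the processing, and some alternatives given at the end found more gd7 than cic6 loci.

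The embryos in question carried the genotype label cic6 and were set against embryos labelled gd7. Each library of either genotype held 40 embryos, sorted by their morphology. OreR, the wild-type stock, was not used to choose any locus and appears below only as an outside reading, in the same windows and, with gd7, also at 1 to 1.5 h (400 embryos a library) and 1.5 to 2 h (100 embryos a library). The remaining libraries, labelled zld-, were read at the chosen loci only, from 2 to 3 h. The labels call the cic6 and gd7 embryos mutant and give neither the parental crosses nor the lesion of either allele. Nothing in the labels says that replicates came from separate cages or days, so the p-values below measure the spread between these libraries, which may be technical.

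Capicua, the product of cic, is a DNA-binding repressor with an HMG box. It keeps the terminal gap genes tll and hkb silent in the middle of the embryo, and signalling by the receptor tyrosine kinase Torso relieves this repression at the poles. In ventral cells Capicua also acts with Dorsal to repress zen and dpp. The gd gene encodes a maternal serine protease in the cascade that activates the Toll receptor on the ventral side. Toll in turn sends Dorsal, an NF-kappaB protein, into ventral nuclei, where it activates mesoderm genes such as twi and sna and, at lower levels, neuroectoderm genes such as sog and brk. Embryos from mothers without gd function form dorsal tissue around their whole circumference.

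The 12 lists differed in the shape of their peaks more than in their number. The cic6 lists held 49747 ± 5741 peaks and the gd7 lists 47977 ± 3439 (mean ± SD, n = 6 each), a difference of 1770 that did not pass an exact permutation test of genotype labels within windows (two-sided p = 0.465). Without the pair of cic6 lists that covered the least sequence, replicate 1 at 2 to 2.5 h and replicate 3 at 2.5 to 3 h, the difference was 4779 peaks and passed (exact permutation p = 0.02). The cic6 peaks covered 24.5 ± 3.62 Mb and the gd7 peaks 29.0 ± 1.06 Mb, a difference of -4.50 Mb (exact permutation p = 0.005, the smallest this design can give). Those 2 short cic6 lists covered 19.95 and 19.90 Mb and the other 4 covered 25.8 to 27.6 Mb, and without the short lists the difference was -2.19 Mb (exact permutation p = 0.03). With gd7 replicate 1, 2 or 3 of both windows left out, the difference was -4.21, -5.01 and -4.28 Mb and no longer passed (exact permutation p = 0.08, 0.05 and 0.06). With the same 2 cic6 lists left out, a choice made after seeing the data, at least 3 of 4 cic6 libraries were asked for, and 2342 cic6 loci and 1014 gd7 loci were found.

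Peaks were narrower and stronger in cic6. The median peak width was 375 ± 33.3 bp in cic6 and 459.5 ± 24.6 bp in gd7, a difference of -84.5 bp, lower in 6 of 6 cic6 libraries than the gd7 mean of their window. The median fold enrichment, the authors' value per peak over background, was 2.70 ± 0.23 in cic6 and 2.28 ± 0.11 in gd7, and all 6 cic6 libraries lay above the gd7 mean of their window. Without the 2 short lists the differences were -71.0 bp and 0.27 (exact permutation p = 0.01 each). Over all 12 lists, each of these differences had an exact permutation p of 0.005, or 0.00667 after Benjamini-Hochberg adjustment over the 4 measures. Within a single window the exact permutation test gave p = 0.1 for width, for enrichment and for covered length, the smallest value that 3 libraries against 3 allow. Width and enrichment move with sequencing depth and with signal over background, which the lists do not give, and their part in every result below was not tested. Where a locus lacks a peak, fewer nuclei with an open site and less opening in each nucleus cannot be told apart.

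**Figure D1:**
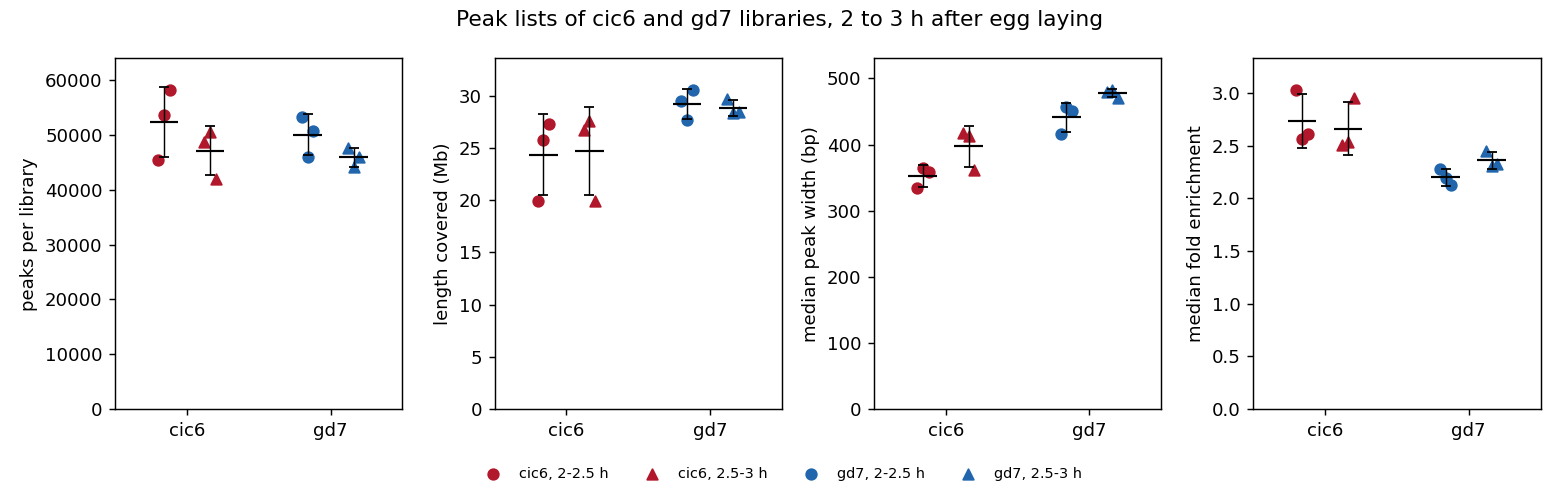
Peaks per library, sequence covered (Mb), median peak width (bp) and median fold enrichment in cic6 and gd7 libraries, circles at 2 to 2.5 h and triangles at 2.5 to 3 h, with the mean and SD of each group of 3. Widths run from 334 to 418 bp in cic6 and from 416 to 482 bp in gd7, and 2 cic6 lists near 20 Mb stand below the other 4.

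Lists of the same genotype shared more peaks than lists of different genotypes. The overlap of 2 lists was taken as the Jaccard index, the number of loci with a peak in both divided by the number with a peak in either. Within a window it averaged 0.708 between cic6 libraries (0.668 to 0.762), 0.724 between gd7 libraries (0.700 to 0.738) and 0.674 between a cic6 and a gd7 library (0.617 to 0.702). The mean within genotypes exceeded the mean between them by 0.042 (one-sided exact permutation p = 0.01, the smallest value possible here).

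Most loci did not separate the genotypes. A peak was present in all 12 libraries at 23009 loci (31.9%), and in a single library at 10579 (14.7%). The strictest form of the rule, 6 of 6 libraries against 0 of 6, was met by 336 loci with peaks in cic6 and 149 with peaks in gd7. Just outside the rule, 871 loci had a peak in 4 cic6 libraries and at most 1 gd7 library, and 733 had one in at least 5 cic6 libraries and in 2 gd7 libraries. On the other side, 929 loci had a peak in 4 gd7 libraries and at most 1 cic6 library, and 862 in at least 5 gd7 libraries and in 2 cic6 libraries. The chosen loci are therefore the end of a continuous range and have no gap around them.

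**Figure D2:**
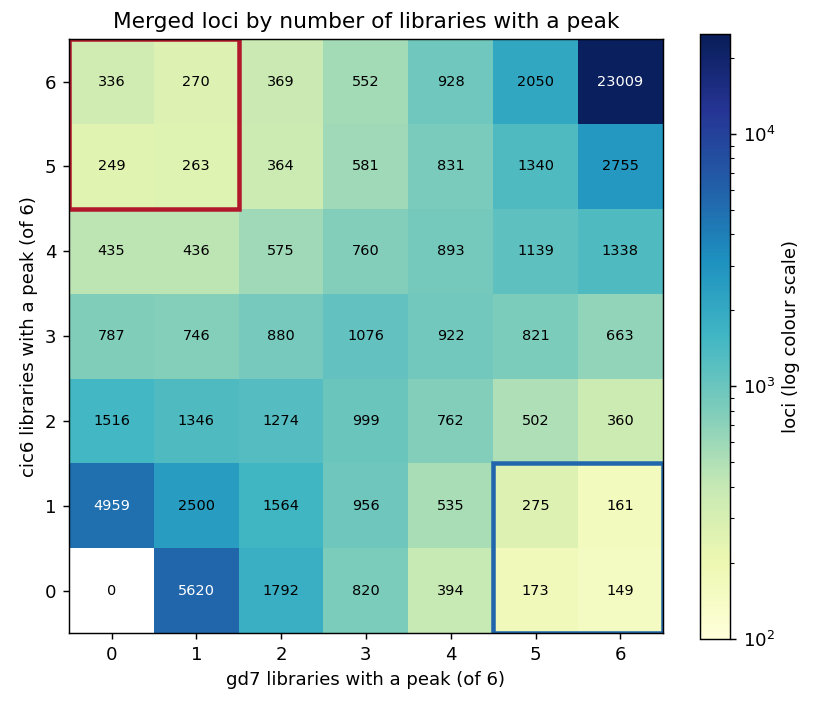
Number of merged loci by how many of 6 cic6 libraries (vertical axis) and how many of 6 gd7 libraries (horizontal axis) had a peak, on a log colour scale. The red box at the upper left holds the 1118 cic6 loci and the blue box at the lower right the 758 gd7 loci, against 23009 loci with a peak in all 12 libraries.

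Loci chosen in one window kept their difference in the other window, whose libraries had no part in choosing them. Of 1239 loci with a peak in 3 of 3 cic6 and 0 of 3 gd7 libraries in the younger window, the cic6 libraries in the older window had a peak at 77.0%, 79.7% and 71.8%, and the gd7 libraries at 29.7%, 22.5% and 31.9%. Of 887 loci chosen the other way round, the cic6 libraries had a peak at 19.8%, 24.0% and 13.0%, and the gd7 libraries at 56.3%, 52.9% and 54.1%. The groups did not overlap in either set, while over all loci cic6 and gd7 averaged 58.4% and 59.4% in this window.

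With the windows exchanged, 1084 loci chosen in the older window had peaks in 73.6% ± 5.8 of cases in cic6 and 21.4% ± 3.8 in gd7 in the younger window (SD, n = 3 each). The 890 loci chosen the other way round had peaks in 36.5% ± 11.99 of cases in cic6 and 74.4% ± 3.8 in gd7. The 4 differences, cic6 minus gd7, were 48.1, -35.5, 52.2 and -37.9 percentage points, each with an exact permutation p of 0.1, the smallest that 3 against 3 allows. Over all loci the means were 62.6% in cic6 and 63.3% in gd7 in the younger window. A part of the difference seen where loci were chosen was therefore lost in the other window.

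OreR libraries stood between the genotypes at the chosen loci, and so did the zld- libraries. The rule set cic6 and gd7 at opposite ends, so libraries outside the choice fall between them largely by the rule, and their place is a description. A peak was present in the OreR libraries of 2 to 3 h at 27.9% to 67.8% of the cic6 loci (median 45.0%) and at 47.9% to 63.98% of the gd7 loci (median 57.3%), against a mean of 62.5% of all loci. Of the 6 OreR libraries, 5 or 6 had a peak at 264 of the cic6 loci (23.6%), 2 to 4 at 512 (45.8%), and 0 or 1 at 342 (30.6%). Among the gd7 loci the numbers were 269 (35.5%), 319 (42.1%) and 170 (22.4%), and over all loci the shares were 49.2%, 26.6% and 24.2%. Each chosen set thus mixed loci that wild-type libraries usually held with loci that they usually lacked. The zld- libraries had a peak at 39.4% ± 12.5 of the cic6 loci and 53.3% ± 10.0 of the gd7 loci (SD, n = 6).

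In the earlier windows, gd7 libraries also had few peaks at the cic6 loci. These loci were kept for their lack of gd7 peaks at 2 to 3 h, with no bound on OreR. A lower gd7 share than in OreR is therefore favoured by the choice, and the p-values do not allow for it. From 1 to 2 h the gd7 libraries held a peak at 3.40% to 20.6% of the cic6 loci (median 7.20%), against 17.5% to 31.9% in OreR (median 30.4%). The difference, gd7 minus OreR averaged over both windows, was -17.5 points (exact permutation p = 0.01, 0.02 adjusted over the 2 locus sets), and all 6 gd7 libraries lay below the OreR mean of their window. Over all loci gd7 was also lower, with 49.3% in gd7 and 58.1% in OreR, which differed by -8.79 points (exact permutation p = 0.025). With every list reduced to the length of the shortest, the difference at the cic6 loci was -10.5 points (exact permutation p = 0.01).

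At the gd7 loci the early libraries did not separate. The share was 56.2% ± 17.6 in gd7 and 56.2% ± 15.6 in OreR from 1 to 2 h (SD, n = 6 each), a difference of -0.066 points (exact permutation p = 0.995). With lists of equal length it was 6.003 points higher in gd7 (exact permutation p = 0.035), so the sign depended on how many peaks were counted. The rule asked for gd7 peaks at 2 to 3 h at these loci, which favours a higher gd7 share. The means at 1 to 1.5 h were 42.3% in gd7 and 42.1% in OreR, and those at 1.5 to 2 h were 70.1% and 70.4%. In the younger and the older window, whose gd7 libraries chose the loci, the rule fixed the gd7 means at 91.95% and 88.3%, and the OreR means were 60.9% and 51.8%.

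**Figure D3:**
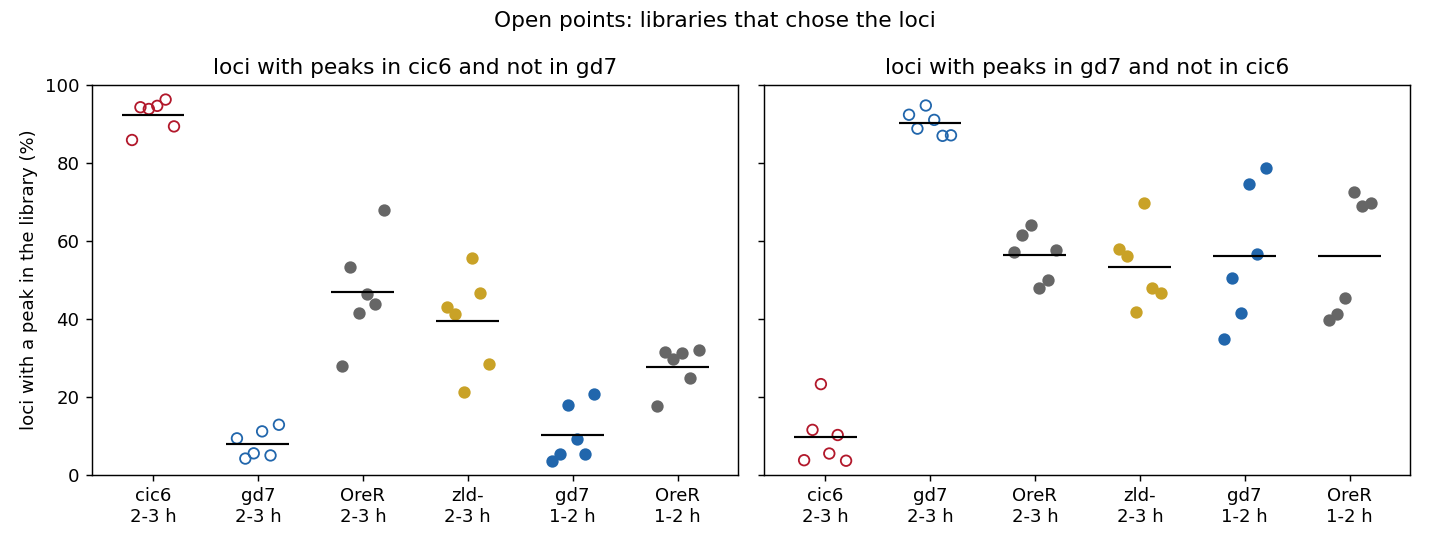
Percent of the 1118 cic6 loci (left) and of the 758 gd7 loci (right) at which each library had a peak, with group means as lines. Open points are the 12 libraries that chose the loci and are fixed by the rule, filled points are other libraries: gd7 at 1 to 2 h stays at or under 20.6% of the cic6 loci while OreR of that age reaches 31.9%. The choice of cic6 loci for absent gd7 peaks favours this order.

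The median locus of each set ranked below the middle of its lists. Under the 50th percentile lay 630 of 1118 cic6 loci and 597 of 758 gd7 loci. The median width of the merged locus was 361 bp for cic6 loci, 563 bp for gd7 loci and 528 bp for all loci, and 138 cic6 loci (12.3%) but 2 gd7 loci (0.264%) spanned 250 bp or less. This difference had the same direction as the difference in peak width between whole lists. Ranked by fold enrichment within its own library's list, the median cic6 locus stood at percentile 45.9 and the median gd7 locus at percentile 29.4. The median fold enrichment was 2.58 at cic6 loci and 1.94 at gd7 loci. Only 30 cic6 loci and 16 gd7 loci had a median above the 90th percentile of their lists.

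The loci lay across the whole genome. The share of an arm's merged loci that were cic6 loci ran from 1.32% on 3R to 1.84% on 2R among the long arms, and was 2.19% on chromosome 4, with 14 loci. The share that were gd7 loci ran from 0.924% on 2L to 1.16% on 3L among the long arms, and was 1.51% on the Y chromosome, with 23 loci. By megabase, the largest numbers of cic6 loci were 24 of 505 merged loci (4.75%) in the bin from 23 to 24 Mb of 3L and 20 of 498 (4.02%) in the next bin. The largest numbers of gd7 loci were 22 of 493 (4.46%) from 26 to 27 Mb of 3L and 18 of 520 (3.46%) from 21 to 22 Mb of X, all toward the centromeric ends of their arms. The fourth largest number of cic6 loci, 18 of 473 (3.81%), lay elsewhere, from 14 to 15 Mb of 2R. Of placed loci, 208 cic6 loci (19.1%) and 164 gd7 loci (22.7%) lay over 10 kb from a protein-coding gene, against 12.7% of all loci.

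The strongest loci with peaks in 6 of 6 libraries of one genotype and 0 of 6 of the other were not at the patterning genes listed further below. The 12 such cic6 loci with the highest rank in their own lists were 197 to 869 bp wide and had fold enrichments from 4.32 to 15.003. In 7 of the 12 at least 5 OreR libraries had a peak too. The locus at 2R:22844782-22844980 (dm6), 997 bp from the gene CG3649, had fold enrichments of 10.4, 8.02 and 9.48 in the younger window and 8.33, 8.36 and 9.63 in the older window in cic6, no peak in any gd7 library of those windows or of 1 to 2 h, and a peak in all 6 OreR libraries. Those 6 values lay in a narrow band, far above the median of their lists. The locus at X:16816576-16816997, inside CG4829, reached 6.81 to 11.9 in cic6 (median 8.46) and had a peak in 5 OreR libraries. At 3L:23198903-23199464, 7205 bp from nAChRalpha4, which encodes a subunit of a nicotinic acetylcholine receptor, cic6 values ran from 6.03 to 8.81 (median 7.495), and neither gd7 nor any of the 6 OreR libraries of 2 to 3 h had a peak. This was the only one of the 12 without an OreR peak.

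The other cic6 loci of this group had no common setting. One lay inside kl-2, a dynein heavy chain gene of the Y chromosome, at Y:605140-605513, with fold enrichments from 4.32 to 9.88. A pair lay 14902 and 15731 bp from CG45691 on 2L, with medians of 7.55 and 7.13. The remaining ones were near Neto (939 bp away, median 7.77), which encodes a transmembrane protein of neuromuscular junctions, near CG42402 (564 bp, 6.85), far from CG42598 (183995 bp, 6.46), inside CG32264 (6.68), and on 2 unplaced contigs.

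The 12 gd7 loci chosen in the same way were wider, from 257 to 1717 bp, with fold enrichments from 2.40 to 14.6. In 10 of the 12 at least 5 OreR libraries had a peak, and in the other 2 none had. At 2L:20175034-20176750, 40111 bp from CG10651, the gd7 values were 6.28, 4.49 and 5.55 in the younger window and 6.001, 5.86 and 6.64 in the older window, with peaks in all 6 OreR libraries and in all 6 gd7 libraries of 1 to 2 h. At X:21763663-21764411, 133515 bp from DIP1, they ran from 3.801 to 4.91 (median 4.19). The wider regions over these loci, tested further below, also held cic6 peaks. Near CG10651 they were in 5 cic6 libraries (3.07 to 4.75), and near DIP1 in 6 (3.65 to 6.32). Inside d4, at 2R:5285001-5286080, they ran from 3.45 to 5.72 (median 4.39).

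A pair of gd7 loci had no peak in any OreR library of 2 to 3 h. One, at 4:1331671-1332156, lay 59912 bp from Cadps, which encodes a protein of dense-core vesicle release, and had fold enrichments from 3.16 to 5.26. The other, at X:14043307-14043859, lay 2913 bp from Ste:CG33247, a copy of the Stellate repeat, where fragments of near-identical copies cannot be assigned with certainty. Its values were 2.40, 2.41 and 2.995 in the younger window and 5.30, 3.96 and 4.27 in the older window in gd7. The locus inside mew, an integrin alpha subunit gene, at X:13237618-13237874, ran from 2.91 to 3.42 in gd7. The remaining ones were near CG34031 and BBS4 and on 4 unplaced contigs.

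Chosen loci were rare at patterning genes, as they were over all loci. Within 10 kb of 16 neuroectoderm genes, 4 of 232 loci were cic6 loci (1.72%) and 3 were gd7 loci (1.29%), near the 1.55% and 1.05% of all loci. At 11 mesoderm genes the numbers were 4 and 2 of 257, and at 16 genes of dorsal ectoderm and amnioserosa 0 and 2 of 221. None of the 21 loci at tll and hkb was chosen in either direction, and 12 of these (57.1%) had a peak in all 12 libraries.

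Single chosen loci at these genes can be read against the median fold enrichments of all chosen loci, 2.58 for cic6 loci and 1.94 for gd7 loci. Mef2, a transcription factor of muscle and mesoderm, held a cic6 locus at 2R:9935177-9935635 with fold enrichments of 2.16, 1.99 and 1.96 in the younger window and 1.73, 1.89 and 2.17 in the older window, and no gd7 peak. At vnd, which specifies the ventral column of the neuroectoderm, the cic6 locus at X:582927-583188 had 3.67, 2.73 and 2.56 in the younger window and 2.25, 2.06 and 2.78 in the older window, again with no gd7 peak. A gd7 locus lay close by, at X:581542-582529, with 1.75 to 2.08 in 6 gd7 libraries and 1.77 in 1 cic6 library. At kni, a gap gene, the cic6 locus at 3L:20699603-20700213 had values from 2.76 to 3.49 in cic6, 1.75 in its single gd7 library, and a peak in all 6 OreR libraries. This locus lay in an annotated kni enhancer described further below.

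Near eve, a pair-rule gene, a cic6 locus at 2R:9975224-9975941 had 1.78 to 2.41 in cic6 and no gd7 peak. Near hh, the segment polarity gene of the Hedgehog ligand, one at 3R:23149308-23149543 had 3.31 to 4.92 in cic6, no gd7 peak and a peak in 1 OreR library. Within cic itself, a cic6 locus at 3R:20283725-20283950 had 3.96 to 5.36 in cic6, 3.03 in 1 gd7 library and a peak in 3 OreR libraries. Among gd7 loci at the listed genes, the highest values were at 2L:17784375-17785108, 6035 bp from CadN, the N-cadherin gene. It had 4.86 to 6.80 in 5 gd7 libraries, no cic6 peak and a peak in 5 OreR libraries. One lay 34 bp from twi, at 2R:23048359-23048749, with 2.04 to 2.48 in 5 gd7 libraries, no cic6 peak and a peak in 3 OreR libraries. One lay inside sog, at X:15605490-15607096, with 1.48 to 2.11 in 5 gd7 libraries, 1.76 in 1 cic6 library and a peak in all 6 OreR libraries. The regions over these twi and sog loci, tested further below, were higher in cic6 in the younger window, against the direction of the loci.

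Signal at a fixed set of regions gave a second view, which does not depend on whether a peak was called in cic6 or gd7. The tables are named for ATAC peaks of OreR, so the set rests on peak calls in the wild-type stock. The authors' deposited tables give, for cic6 and for gd7, log2 fold changes over OreR at the same regions of 2114 bp. The cic6 value minus the gd7 value was taken as the difference, with a standard error from the sum of the 2 variances. Both values share the OreR libraries, and the error is therefore larger than it would be with the covariance taken off. In the younger window the difference passed a Benjamini-Hochberg adjusted p of 0.05 (Wald test over 20928 regions) at 815 regions that were higher in cic6 (3.89%) and 657 that were lower (3.14%). In the older window it passed at 763 (3.65%) and 524 (2.5%). In both windows 423 regions were higher and 368 were lower, and no region changed sign. The median difference was 0.76 and 0.83 in the 2 windows among the 423, and -0.82 and -0.80 among the 368.

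The calls of the authors' deposited tables against OreR were also counted at these regions. Of the 423 regions higher in cic6, 278 were called higher than OreR in cic6 in both windows in the authors' deposited table, and 132 were called lower than OreR in gd7. Of the 368 regions lower in cic6, 248 were called lower than OreR in cic6 and 103 higher than OreR in gd7 in the authors' deposited tables. Over all 20928 regions, 2470 (11.8%) were called higher and 2268 (10.8%) lower in cic6, and 361 (1.72%) higher and 651 (3.11%) lower in gd7, in the authors' deposited tables. The 423 and 368 regions were selected on the difference of the same 2 values, which largely fixes these directions, so the counts are a description. Both comparisons share the OreR libraries, and a call depends on the standard error of its own table as well as on the size of the change.

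In the younger window the difference rose with the level of the region. With the regions split into 5 groups by mean normalized count, its median was -0.23 in the lowest group and 0.34 in the highest, and of the 4186 regions in the highest group 328 were higher in cic6 and 36 lower. In the older window the medians of these groups were 0.03 and 0.04. With the trend removed by a running median, 611 regions were higher and 512 lower in the younger window, 819 and 476 in the older window, and 449 and 299 in both windows, of which 344 and 280 were also called without the correction. The correction lowered the medians of most gene lists in the younger window, so list medians and the called differences of single genes in the younger window are given below with their corrected counterpart.

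The chosen loci and the regions overlapped in part. A tested region held 407 of the 1118 cic6 loci (36.4%) and 293 of the 758 gd7 loci (38.7%). Of the 397 regions with a cic6 locus, 66 (16.6%) were higher and 11 (2.77%) lower in cic6 in the younger window, and 82 (20.7%) and 7 (1.76%) in the older window. Of the 293 regions with a gd7 locus, 8 (2.73%) were higher and 51 (17.4%) lower in the younger window, and 9 (3.07%) and 37 (12.6%) in the older window. The same libraries lie behind lists and tables, so these shares are a description. Most regions with a chosen locus were not called.

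Of the 10 regions with the largest positive differences, 4 had no peak in any gd7 library, 5 had one in all 6 and 1 in 3. At 3R:608344-610457, inside the myosin gene Myo81F, the authors' deposited tables give log2 fold changes over OreR of 0.16 in cic6 and -7.32 in gd7 in the younger window, and 0.33 and -10.5 in the older window. The strongest peak of the region had fold enrichments of 3.36 to 5.31 in the 6 cic6 libraries, and no gd7 library had a peak. The differences were 7.48 (SE 0.681, adjusted p 3.36e-25 from the Wald test) and 10.8 (SE 1.17, adjusted p 1.87e-17). A fitted fold change against a nearly empty group is no bound on the real one, and counts per library were not used here.

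Inside d4, which encodes a zinc-finger protein of the double PHD finger family, 3 regions differed in the same way. At 2R:5264675-5266788 the authors' deposited tables give 1.46 in cic6 and -7.51 in gd7 in the younger window and 1.47 and -7.19 in the older window. All 6 cic6 libraries had a peak there, with fold enrichments of 4.21 to 5.35, and no gd7 library had one. At 2R:5282654-5284767 the differences were 4.56 (SE 0.221) and 5.27 (SE 0.235), with cic6 peaks of 3.99 to 6.13 and no gd7 peak. A gd7 locus lay close by, at 2R:5285001-5286080, so that d4 held strong loci of both directions within a few kilobases. The third region, at 2R:5271487-5273600, had a peak in 3 cic6 libraries only.

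On X, 4 regions over the Stellate genes Ste:CG33239, Ste:CG33241, Ste:CG33245 and Ste:CG33236 had differences from 3.60 to 4.08 over both windows. In the authors' deposited tables gd7 lay at -3.82 to -4.30 and cic6 at -0.20 to -0.34 against OreR. The strongest peaks in these regions were present in all 12 libraries, with median fold enrichments of 3.07 to 4.76 in cic6 and 2.26 to 4.03 in gd7, and the regions over Ste:CG33239 and Ste:CG33245 each also held 1 cic6 locus. Stellate genes are near-identical repeats, and the split of fragments between copies, like the number of copies in each stock, makes these values uncertain. Near the centromere of 3L, 32565 and 42786 bp from vtd, a cohesin subunit gene, a pair of regions had differences of 3.63 and 3.96 and of 2.84 and 3.09.

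The largest negative difference lay in w, the eye colour gene white. At X:2795031-2797144 the authors' deposited tables give log2 fold changes over OreR of -5.10 in cic6 and -0.10 in gd7 in the younger window, and -8.91 and -0.11 in the older window. No cic6 library had a peak in the region, and 5 of 6 gd7 libraries had one, with fold enrichments of 2.64 to 3.76. The differences were -5.00 (SE 0.294, adjusted p 2.84e-61) and -8.80 (SE 0.748, adjusted p 5.56e-29) in the Wald test. A difference in the genome of the stocks and one in accessibility cannot be told apart here, at w or at the other regions where 1 genotype had nearly no signal.

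Further negative differences lay both far from genes and at them. At 2L:20204117-20206230, 49758 bp from CG17571, the differences were -4.57 (SE 0.338) and -5.62 (SE 0.342), with no cic6 peak and gd7 peaks of 2.43 to 3.52 in all 6 libraries. At X:21767587-21769700, 137439 bp from DIP1, they were -4.80 and -4.88, although no gd7 library and 1 cic6 library had a peak. The tenth region lay 721 bp from CG45487, with -1.79 and -1.88. At X:21528799-21530912, 9581 bp from the cytochrome P450 gene Cyp6t1, they were -3.05 and -3.75. At 3R:92674-94787, 472289 bp from Myo81F, they were -2.74 and -2.84, and here gd7 stood above OreR, with 2.204 and 2.11 in the authors' deposited table, while cic6 lay at -0.53 and -0.73. Inside Snap25, a gene of synaptic vesicle fusion, they were -2.0004 and -1.69, with peaks of similar strength in all libraries, 3.91 to 4.70 in cic6 and 4.08 to 4.70 in gd7. At 2L:20207177-20209290, 46698 bp from CG17571, they were -3.01 and -3.14, but the strongest peaks went the other way. Their median fold enrichment was 9.78 in 5 cic6 libraries and 2.48 in 6 gd7 libraries.

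**Figure D4:**
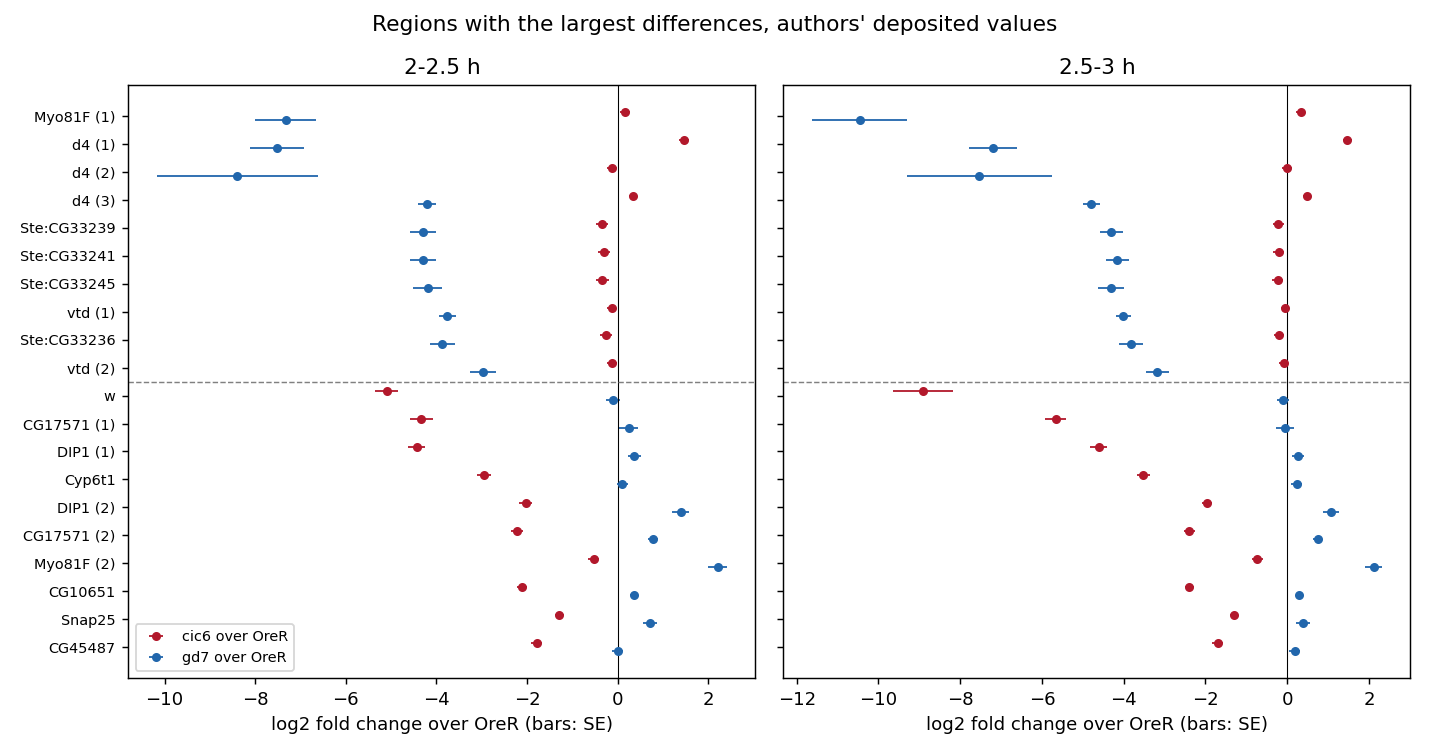
Log2 fold changes over OreR (horizontal axis, bars are SE) of cic6 (red) and gd7 (blue) in the authors' deposited tables, at the 10 regions with the largest positive mean difference (above the dashed line) and the 10 with the largest negative one, left at 2 to 2.5 h and right at 2.5 to 3 h. Above the line gd7 lies at -2.97 or lower while cic6 stays between -0.34 and 1.47, and below it cic6 lies below gd7 in every region.

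Mesoderm genes were the list with the largest number of regions higher in cic6 in both windows, 6 of 83 against 423 of all 20928. They lay at Mef2 and CadN only, and posterior gut genes had a similar share, 2 of 27. Of 83 regions with their midpoint within 10 kb of 11 genes, some of them inside a neighbouring gene, 14 were higher and 2 lower in the younger window, and 10 and 1 in the older window, that is 16.9% and 12.05% higher against 3.89% and 3.65% of all regions. The median difference was 0.17 and 0.24 (0.18 and 0.20 with the trend removed, when 5 and 9 regions were higher and 2 and 1 lower), against -0.02 and 0.00 over all regions. Genes named from here on that were not called in both windows were picked after their values were seen. The terminal and Capicua lists, cic and gd are apart from this, with every gene given but not every region. At Mef2, in the enhancer annotated Mef2_Nguyen at 2R:9929761-9931874, the difference was 0.91 (SE 0.166, adjusted p 5.19e-06; 0.80 with the trend removed) and 1.03 (SE 0.165, adjusted p 5.73e-08). Its strongest peak had fold enrichments of 11.8, 8.85 and 9.58 in the younger window and 8.81, 8.69 and 10.3 in the older window in cic6, and of 4.54, 4.74 and 4.98, then 6.29, 6.82 and 5.81, in gd7. All 6 cic6 values lay above all 6 gd7 values. In the authors' deposited tables cic6 stood at 0.76 and 0.67 over OreR there, and gd7 at -0.15 and -0.36.

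CadN had 3 of its 22 regions higher and 1 lower in both windows, the strongest at 2L:17747914-17750027 with differences of 1.00 (SE 0.194, 0.84 with the trend removed) and 0.84 (SE 0.193) and peaks of 4.47 to 5.72 in cic6 and 2.73 to 4.06 in gd7. At the master regulators of mesoderm no region was called in both windows. At twi, 2 of 14 regions were higher in the younger window and another, at 2R:22992841-22994954, in the older window (0.51, SE 0.123, adjusted p 0.00149). One of the 2, at 2R:23048140-23050253, held the gd7 locus near twi, with 0.83 (adjusted p 0.0111) and 0.60 (adjusted p 0.122) in the Wald test. With the trend removed its younger value was 0.58 (adjusted p 0.157). At the twi enhancer twi_Jiang, 2R:23044605-23046718, the difference was 1.11 (SE 0.275, adjusted p 0.00226) and then 0.71 (adjusted p 0.114), with peaks of 5.42 to 7.86 in cic6 (median 6.74) and 4.38 to 5.45 in gd7 (median 5.00). At the sna enhancer sna_Ip, 2L:15478104-15480217, it was 0.87 (SE 0.225, adjusted p 0.00395) and then 0.62 (adjusted p 0.0801), with peaks of 5.52 to 6.996 in cic6 and 4.64 to 5.16 in gd7. At wntD, which encodes a Wnt ligand that feeds back on Toll signalling, it was 1.05 (adjusted p 0.00859) and then 0.79 (adjusted p 0.0884). With the trend removed, the younger-window calls of twi_Jiang, sna_Ip and wntD were lost too, at 0.57 (adjusted p 0.294), 0.27 (adjusted p 0.707) and 0.52 (adjusted p 0.425). The windows were not shown to differ at these genes: a test of the difference between windows passed at 1 of the 20928 regions, in w, where cic6 had no peak in either window.

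The enrichment of single peaks needs a yardstick, since the whole cic6 lists were more enriched. At Act5C, an actin gene of all cells, the strongest peak had 5.00 to 7.66 in cic6 and 3.42 to 4.38 in gd7, so this constitutive gene separated the genotypes in the same direction as Mef2 did. The strongest peaks of the regions taken for RpL32, alphaTub84B, betaTub56D, eIF4A and His3.3B did not overlap either. For RpL32 they were 4.15 to 5.65 in cic6 and 2.21 to 3.40 in gd7, but that region lay 2783 bp from RpL32 and overlapped Sry-alpha. At Rpb1 the strongest peaks of the 2 genotypes overlapped. In the region taken for Gapdh1, 4166 bp away and over CanB2, only 2 gd7 libraries had a peak. Strongest peaks that do not overlap are therefore no mark of a called region. None of 31 regions at 8 constitutive genes was called in either window by the Wald test. Their median difference was 0.29 in the younger window, as large as that of several patterning lists, and 0.03 with the trend removed, and it was -0.03 in the older window.

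Neuroectoderm genes were called in the younger window, where 13 of 78 regions at 16 genes were higher and none lower (16.7% against 3.89%), with a median difference of 0.27 (0.21 with the trend removed, when 4 were higher). In the older window none was higher, 1 was lower and the median was 0.09. The lower one, at 2L:8817951-8820064, lay 5581 bp from SoxN, a gene of early neural precursors, with -0.41 (SE 0.132, adjusted p 0.0378). At sog, an inhibitor of BMP signalling, the enhancer sog_1 at X:15624672-15626785 had differences of 1.26 (SE 0.290, adjusted p 0.000747) and 0.82 (adjusted p 0.0665). With the trend removed the younger value was 0.91 and stayed called (adjusted p 0.0366). Its strongest peak had 9.42, 7.72 and 8.47 in the younger window in cic6, against 6.80, 4.98 and 6.16 in gd7, which do not overlap, and 8.49, 8.20 and 8.50 in the older window, against 8.28, 7.28 and 8.56, which do. In the authors' deposited table gd7 stood at -0.92 and -0.75 over OreR, both called, and cic6 at 0.34 and 0.07, neither called. Another sog region, at X:15606446-15608559, overlapped the gd7 locus inside sog and had 0.88 (Wald test, adjusted p 0.0279) in the younger window. Its value was 0.64 with the trend removed (adjusted p 0.205) and 0.47 in the older window (adjusted p 0.458).

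At brk, a repressor of BMP target genes, the enhancer brk_1 at X:7319901-7322014, 8769 bp from the gene, had 1.13 (SE 0.297, adjusted p 0.00458) and 0.53 (adjusted p 0.403). At vnd the enhancer vnd_1 at X:583140-585253 had 1.15 (SE 0.245, adjusted p 0.000199) and 0.64 (adjusted p 0.0999), with peaks of 3.79 to 6.17 in cic6 and 2.25 to 2.99 in gd7, which did not overlap. At ths, an FGF ligand, the difference was 1.05 (adjusted p 0.00467) and 0.53 (adjusted p 0.34). With the trend removed, vnd_1 kept its younger-window call at 1.00 (adjusted p 0.00203), while brk_1 at 0.58 (adjusted p 0.355) and ths at 0.48 (adjusted p 0.457) lost theirs. The region of SoxN with the largest mean difference had 0.88 (adjusted p 0.094) in the younger window and that of sim, a regulator of the midline, 0.49 (adjusted p 0.306), neither called, and esg had negative values of -0.42 and -0.65 that were not called either.

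At dorsal genes the share of higher regions was below that of all regions. Of 71 regions at 16 genes of dorsal ectoderm and amnioserosa, 1 was higher in the younger window, and 1 was higher and 1 lower in the older window, that is 1.41% higher in each against 3.89% and 3.65% of all regions. The median difference was 0.21, -0.01 with the trend removed, and -0.04 in the older window. Both genotypes stood above OreR here, with median log2 fold changes of 0.53 in cic6 and 0.18 in gd7 in the younger window and of 0.26 and 0.31 in the older window in the authors' deposited tables. At a region 7425 bp from zen, which specifies amnioserosa, the difference was 0.70 (adjusted p 0.102) and 0.06 (adjusted p 0.97). At dpp, the BMP ligand, it was 0.69 (adjusted p 0.127) and 0.27 (adjusted p 0.793).

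The exception was near scw, a BMP ligand. The region at 2L:19702511-19704624, 1543 bp from scw and inside CG46244, had differences of 0.94 (SE 0.231, adjusted p 0.00207; 0.71 and adjusted p 0.0415 with the trend removed) and 1.05 (SE 0.231, adjusted p 0.000303). The strongest peak had 5.41 to 6.97 in cic6 (median 5.61) and 2.58 to 3.52 in gd7 (median 2.94), with no overlap, as at Act5C. In the authors' deposited tables cic6 stood at 0.60 and 0.42 over OreR and gd7 at -0.33 and -0.62. The 1 region called lower in the older window lay 2863 bp from net, at 2L:77445-79558. It had -0.50 (SE 0.162, Wald test, adjusted p 0.034) there and -0.03 (adjusted p 0.931) in the younger window. At pnr, a GATA factor of the dorsal epidermis, the region with the largest mean difference in absolute size had -0.25 and -0.50, neither called (adjusted p 0.46 and 0.13).

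The terminal genes tll and hkb, which are classical targets of Capicua, had large differences that were called in the younger window only. Of 7 regions, 4 were higher in the younger window (57.1% against 3.89% of all regions) and none in the older window. All 7 differences were positive in both windows. Of the 31 regions at constitutive genes, 26 were positive in the younger window and 11 in the older window. Over all regions the median difference was -0.021 and -8.60e-05. The medians of the 7 were 0.72 and 0.39, or 0.41 and 0.38 with the trend removed, when none was called. At tll, the enhancer tll_(+1) at 3R:30851030-30853143 had 1.12 (SE 0.296, adjusted p 0.00518) and 0.85 (SE 0.296, adjusted p 0.0611), and with the trend removed the younger value was 0.51 (adjusted p 0.455). In the authors' deposited tables cic6 stood at 1.22 and 0.92 over OreR, both called, and gd7 at 0.10 and 0.07, neither called. Its strongest peak had 5.26, 4.88, 4.15, 3.85, 4.07 and 4.96 in the 6 cic6 libraries and 4.38, 3.92, 3.95, 4.22, 4.19 and 3.95 in the 6 gd7 libraries, which overlap, so the highest point of the peak hardly separated the genotypes.

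At hkb, the enhancer hkb_(-2) at 3R:4346601-4348714 had differences of 1.02 (SE 0.268, adjusted p 0.00483) and 0.68 (adjusted p 0.128), and the younger value was 0.41 with the trend removed (adjusted p 0.552). The authors' deposited tables give 0.92 and 0.69 over OreR in cic6 and -0.10 and 0.01 in gd7. Its strongest peak had 3.69 to 5.11 in cic6 and 3.74 to 4.202 in gd7. Over 6 textbook targets of Capicua (tll, hkb, zen, ind, aos and mirr), 7 of 28 regions were higher in the younger window (25% against 3.89% of all regions). None was lower there, and none was called in the older window. The median was 0.49, 0.13 with the trend removed, when none was called, and 0.16 in the older window. At aos, which encodes the inhibitor Argos of EGF receptor signalling, the difference was 0.75 (adjusted p 0.0252; 0.59 and adjusted p 0.14 with the trend removed) and 0.54 (adjusted p 0.182). At ind, which specifies the intermediate column of the neuroectoderm, it was 0.96 (adjusted p 0.0309; 0.42 and adjusted p 0.624 with the trend removed) and 0.40 (adjusted p 0.638). Of 9 regions at mirr, a homeobox gene, the 1 called region, 8431 bp away at 3L:12683095-12685208, was higher in the younger window, with 0.53 (adjusted p 0.0394; 0.49 and adjusted p 0.0789 with the trend removed) and 0.33 (adjusted p 0.354). The mirr region with the largest mean difference in absolute size had -0.35 and -0.78, neither called (adjusted p 0.455 and 0.0633).

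Genes of the posterior gut, which act downstream of the terminal system, had 2 of 27 regions higher in both windows, against 423 of all 20928. At the 6 genes 8 regions were higher in the younger window (29.6%) and 3 in the older window (11.1%), against 3.89% and 3.65% of all regions. None was lower, and the medians were 0.41 and 0.25 (0.21 and 0.24 with the trend removed, when 2 and 3 were higher). At fkh, a forkhead factor of the gut, the region at 3R:28587588-28589701, 2324 bp from the gene, had 1.03 (SE 0.185, adjusted p 3.69e-06; 0.86 with the trend removed) and 0.91 (SE 0.184, adjusted p 5.73e-05), with peaks of 2.73 to 3.82 in cic6 and 1.81 to 2.49 in gd7 that did not overlap. The authors' deposited tables give 1.02 and 0.83 in cic6 and -0.01 and -0.08 in gd7. At byn, the Brachyury gene of the hindgut, the region at 3L:11917418-11919531, 8162 bp away and inside CG44837, had 0.50 (adjusted p 0.0148) and 0.52 (adjusted p 0.0116), and in the younger window it lost its call with the trend removed (0.43, adjusted p 0.0611).

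Segmentation genes had called regions in shares around those of all regions, 3.89% and 3.65% higher. The gap list had 1 and 2 regions higher of 22 (4.55% and 9.09%), and the head gap list 1 and 0 of 14 (7.14% in the younger window). Among pair-rule genes 1 of 42 was higher in each window (2.38%) and 1 lower in the older window, and the median of 0.26 in the younger window turned to -0.11 with the trend removed. At kni, the enhancer kni_-5_construct at 3L:20699027-20701140 had 0.82 (SE 0.152, adjusted p 6.54e-06; 0.75 with the trend removed) and 0.87 (SE 0.151, adjusted p 1.07e-06). It is the place of the cic6 locus named above. The authors' deposited tables give 0.20 and 0.18 in cic6, neither called, and -0.63 and -0.69 in gd7, both called.

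At slp1 and slp2, a pair of forkhead genes that share the enhancer slp2_(+3), the differences were 0.68 (adjusted p 0.0373) and 0.67 (adjusted p 0.0465), and the younger one lost its call with the trend removed (0.39, adjusted p 0.443). At opa, a zinc-finger gene of the pair-rule class, the region at 3R:4867540-4869653 was lower in cic6 in the older window, with -0.99 (SE 0.184, adjusted p 7.10e-06), and had -0.42 (adjusted p 0.159) in the younger window, where it was called with the trend removed (-0.62, adjusted p 0.0218). In the authors' deposited table cic6 stood at -1.05 over OreR in the older window. At segment polarity genes 1 of 24 regions was higher in the younger window (4.17% against 3.89% of all regions) and 1 lower in the older window. At Hox genes 3 of 89 were higher (3.37%) and 1 lower in the younger window, then 0 and 1. The lower one in the older window in the Hox list lay in Ubx, with -0.75 (SE 0.229, adjusted p 0.0234).

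Enhancers that the authors annotated by pattern in their deposited tables were read in the same way, beside the 3.89% and 3.65% of all regions that were higher. In the group of highest mean normalized count, 328 of 4186 regions were higher in the younger window and 97 of 4186 in the older window. The enhancers were not matched to other regions of their level. Of 37 ventral enhancer regions, 11 were higher in the younger window and 5 in the older window, with medians of 0.61 and 0.30 (0.24 and 0.20 with the trend removed, when 3 and 5 were higher). Of 21 neuroectoderm regions, 11 and 1 were higher, with medians of 0.84 and 0.41 (0.43 and 0.27 with the trend removed, when 3 and 1 were higher). All 21 differences were positive in both windows, from 0.49 to 1.26 and from 0.16 to 0.90. Positive signs were common in the other patterns too. In the younger window 37 of 37 ventral, 18 of 18 anterior and 17 of 19 dorsal regions were positive, and 32, 17 and 13 in the older window. At constitutive genes 26 and 11 of 31 regions were positive. Of 19 dorsal regions none was higher in either window and 1 was lower in the older window, with medians of 0.48 and 0.06 (-0.02 and -0.07). Of 18 anterior regions 6 and 2 were higher, with medians of 0.70 and 0.39 (0.26 and 0.34 with the trend removed, when 1 and 2 were higher). The patterns were not tested against each other.

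The largest difference at an annotated enhancer was at Cyp310a1, a cytochrome P450 gene. At the ventral enhancer Cyp310a1_Ozdemir, 2L:18651553-18653666, it was 2.37 (SE 0.209, adjusted p 1.02e-26; 1.94 with the trend removed) and 2.46 (SE 0.209, adjusted p 4.81e-29). The strongest peak had 9.41, 6.86 and 7.93 in the younger window and 6.69, 6.28 and 6.96 in the older window in cic6, and 2.70, 2.36 and 2.39, then 2.74, 2.27 and 2.68, in gd7. The groups were far apart, the lowest cic6 value, 6.28, standing far above the highest gd7 value, 2.74. The authors' deposited tables give 0.82 and 0.73 over OreR in cic6 and -1.54 and -1.73 in gd7, so both genotypes had moved from OreR, in opposite directions.

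Further enhancers called in both windows were brk_primary, at X:7296172-7298285, with 0.91 (adjusted p 0.013) and 0.82 (adjusted p 0.0366), and VT7402_Kvon near noc, a zinc-finger gene, with 0.82 (adjusted p 0.000296) and 0.63 (adjusted p 0.00998). The call of brk_primary did not hold in both windows with the trend removed and that of VT7402_Kvon did. No enhancer of the 4 patterns was called lower in cic6 in both windows.

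**Figure D5:**
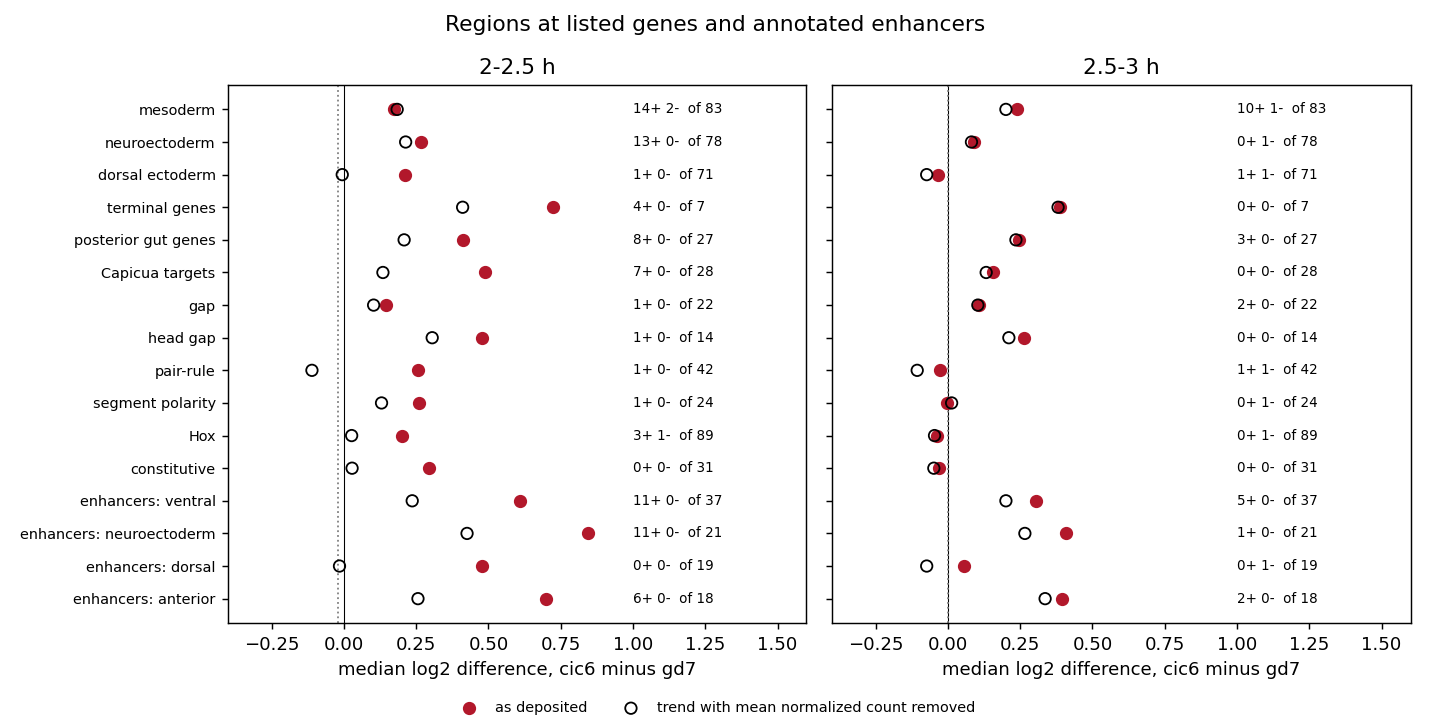
Median difference in log2 fold change, cic6 minus gd7, over the regions within 10 kb of the genes of each list and over annotated enhancers of each pattern, as deposited (filled) and after taking off the trend with mean normalized count (open), with the numbers of regions called higher (+) and lower (-) in cic6 at the right and the median of all regions as a dotted line. Ventral, neuroectoderm and anterior enhancers stay above 0 in both windows, while dorsal enhancers lie at -0.02 and -0.07 once the trend is removed.

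The genes named in the genotypes gave no common call. Over 18 regions at cic and gd, 0 were higher and 1 lower in the younger window and 1 higher and 1 lower in the older window. In cic the region at 3R:20291076-20293189 had 0.74 (adjusted p 0.154) and 0.31 (adjusted p 0.796), and the region at X:11975650-11977763, 7391 bp from gd and inside cac, a calcium channel gene, had -0.16 (adjusted p 0.567) and -0.22 (adjusted p 0.631). The strongest peak had 4.44 to 5.62 in cic6 and 3.58 to 4.001 in gd7 in the cic region, and 2.92 to 3.86 in cic6 and 2.65 to 3.20 in gd7 in the region near gd. The called regions all lay at cic. At 3R:20244981-20247094, 5676 bp away, the younger value was -0.56 (Wald test, adjusted p 0.00338) and -0.50 with the trend removed. In the older window 3R:20268327-20270440 had 0.65 (adjusted p 0.0079) and 3R:20306002-20308115, 2060 bp away, had -0.46 (adjusted p 0.0188). Accessibility at either gene is no check of the genotype, since the labels do not describe the lesions.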

How the data were processed

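ATAC-seq peak lists of 12 libraries (6 cic6, 6 gd7, 3 in each of 2 windows) were compared, with OreR, zld- and earlier gd7 lists read at the chosen loci. The authors deposited 1 list per library, with a score, a fold enrichment (ratio), and the −log10 of a p-value and a q-value for each peak. The authors' deposited tables give a mean normalized count (a signal), a log2 fold change over OreR, its standard error, a test statistic (score) and a p-value at regions of 2114 bp, of which 20928 had a p-value in both tables and 7 lacked one in gd7. Bowtie2 2.3.5.1, Picard 2.23.8, MACS2 2.2.7.1, DESeq2 and the build dm6 are named per the submitters' processing notes. How reads were shifted for Tn5 insertion and which size factors were used is not given in the sources used here. Shallow libraries can give short lists, and no counts per library were used, so depth is unknown and no interval or count test was computed.

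Overlapping peaks were merged. Exact permutation tests (two-sided unless stated) exchanged genotypes within windows (400 permutations). Differences of deposited log2 fold changes were tested by a Wald ratio with Benjamini-Hochberg adjustment over 20928 regions in each window, and the trend with mean normalized count was removed with a running median of 1001 regions as an alternative. Gene names and distances came from RefSeq's gene table of release 6, without strand. Coordinates are 1-based. The members, gene lists and tests were chosen with earlier results of these data known. Named loci were the 12 of each direction at 6 of 6 against 0 of 6 with the highest rank in their lists, named regions the 10 of each direction called in both windows with the largest mean difference, and named genes up to 4 of each list with a region called in both windows, with all terminal and Capicua genes and cic and gd; tests on simulated data with known changes preceded the analysis. Other genes with values in the text, such as twi, sog and Act5C, were picked after their values were seen. Alternatives were stricter peaks (−log10 q of at least 3), lists of equal length, loci from summits within 150 bp, other overlaps and thresholds, left-out replicates, and other scalings and variances. Motifs and promoters were not analysed, since no genome was used. Same-numbered libraries of the 2 genotypes did not deviate together (correlations of -0.055 to 0.016), so the numbers did not pair them. Python 3.11.15, numpy 2.4.6, pandas 2.3.3, scipy 1.17.1 and matplotlib 3.10.9 were used.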

Additional observations from a re-analysis of the deposited data

Results flagged for a closer look

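The region in w at X:2795031-2797144 passed the test of a difference between windows. The difference, cic6 minus gd7, was -5.00 in the younger window (2 to 2.5 h) and -8.80 in the older one (2.5 to 3 h), so that it changed by -3.80 (SE 0.803, Wald test with Benjamini-Hochberg adjusted p 0.0476 over 20928 regions). It was the only region to pass this test, and 328 had an unadjusted p under 0.05. No cic6 library had a peak there in either window. The cic6 values in both windows are fitted folds of a nearly empty group, so the change between them is a difference of 2 values near the floor and no change with age is read from it.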

How the results depend on the processing

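The narrower width, the higher enrichment and the within-genotype similarity kept their direction and their call under stricter peaks, equal lists (similarity) and every left-out replicate, with differences of -91.5 to -77.0 bp, 0.38 to 0.50 and 0.038 to 0.048. The difference in covered length was -5.57 to -3.89 Mb with 1 replicate left out and lost its call without gd7 replicate 1, 2 or 3 (p = 0.08, 0.05 and 0.06, exact permutation). The peak number differed by 324.3 to 3111 with a replicate left out. Without the 2 cic6 lists with the least sequence, an alternative chosen after seeing the data, it differed by 4779 and 2342 cic6 loci were found. With 1 replicate left out, 1588 to 2093 cic6 loci and 1263 to 1876 gd7 loci were found, since the rule is looser with fewer libraries. The 6 of 6 against 0 of 6 rule gave 336 and 149. From summits 1480 cic6 and 1916 gd7 loci were found, and with a stricter overlap 1122 and 1255, so that gd7 loci were the more numerous. These gd7 loci overlapped 698 and 719 of the 758. With stricter peaks and with equal lists 435 and 400 of the 758, and 934 and 858 of the 1118 cic6 loci, were found again.

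The share of gd7 loci in earlier windows, gd7 minus OreR, turned to 6.003 points with equal lists, to 0.64 and 1.23 without gd7 replicates 1 and 2 and to 0.58 without OreR replicate 3, within -2.07 to 1.23 over left-out replicates. The share of cic6 loci ranged from -22.0 to -15.0. The cause of these shifts was not tested. With the variance of the difference at 0.5 of the sum, 3076 and 2850 regions were higher and lower in cic6 in the younger window, 1974 and 1522 in the older, and 1251 and 1037 in both; with an absolute difference of at least 1 they were 140 and 118, 146 and 127, and 83 and 88. With a replicate block, pairing libraries by number within windows, the sign permutation gave p = 0.531 for peak number and 0.03125, its smallest value, for covered length, width and enrichment; it changed no call. Window transfer kept its direction with equal lists. The median of the terminal list was 1.07 and 0.76 with regions within 2 kb, and with the trend removed in the younger window the terminal, pair-rule and constitutive medians became 0.41, -0.11 and 0.03. Leaving out libraries was not possible for the deposited tables, and motif shares were not run. No counts per library were used, so a missing peak cannot be told from low depth.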
